A study of Mus musculus with 22 samples.

Results

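The genes described here are 35 mouse genes of the ATF4 amino acid response and of amino acid supply: transcription factors, stress effectors, enzymes that make asparagine, serine and one-carbon units, amino acid carriers and other amino acid enzymes. They were chosen by symbol, with earlier results of these data known. Of the 35, 34 had a probe set among the 18193 genes measured, and all 34 were bright enough to be tested in every comparison. Pycr1 is not listed with a probe set in the annotation used and its expression was not analysed here. Each gene is represented by the probe set with the highest mean over the 22 arrays, passing over cross-hybridising (_x_at) sets where another was present.

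Messenger RNA was measured on Affymetrix 3′ expression arrays in 3 groups of mouse samples. A2C12 was grown from the lung tumour of a C57BL/6 mouse with c-myc and c-raf transgenes, and only its side population (SP), the sorted fraction that pumps out the DNA dye Hoechst, was profiled. The groups were 3 arrays of SP cells exposed to a monoclonal antibody against mouse EpCAM, an epithelial surface protein, at 100 µg/ml for 48 h; 3 arrays of untreated SP cells; and 16 arrays of whole lung from C57BL/6 mice without the transgenes, 8 labelled male and 8 labelled female. Both cell groups grew in DMEM with serum and 2 mmol/l glutamine and went through the same dye incubation and sort, which the lungs did not. All cell arrays come from 1 line, so their spread covers repeat preparations of that line and not tumours, and the labels used here give no ages for the mice. The replicates within a group are called biological in the labels.

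ATF4 is a transcription factor made mainly by translational control. When amino acids run short, or under other stresses, kinases phosphorylate the initiation factor eIF2α, most protein synthesis slows, and the ATF4 message is translated more. ATF4 then pairs with C/EBP proteins on composite DNA elements and switches on genes for amino acid synthesis, uptake and transfer RNA charging, together with regulators such as CHOP (Ddit3) and TRIB3 that feed back on the response. In tumours the same programme supplies serine, glycine, asparagine and cysteine to dividing cells.

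The lung is a tissue of many cell types and the cells are a sorted line. Of 55 measured markers of lung cell types, 50 were lower in each cell group, 40 were under an intensity of 40 on all 6 cell arrays, and Col1a1 was the 1 that was higher. The summed intensity of the 7 endothelial markers lay between 75.4 and 90.6 in the cells, against 11516 to 23090 in lung, and that of the 6 alveolar type 2 markers lay between 299.8 and 401, against 37348 to 54931. The 8 fibroblast and smooth muscle markers summed to 11581 to 14968 in the cells and 17372 to 26990 in lung. In such bulk samples fewer cells of a type and less RNA per cell cannot be told apart. The labelling controls also differed between cells and lung: the dap control gave 366 to 601 in the cells and at most 2.72 in lung, so labelling and sample type cannot be told apart here. Lung arrays labelled male 3 and male 4 had Xist at 1512 and 1583, as in arrays labelled female, and Uty at 8.27 and 9.46, against at least 722 on the other 6 labelled male. Without these 2 arrays 22 members were higher in antibody-treated and 20 in untreated cells.

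The promoters of the members that differed from lung are shown where they hold the core of that composite element. RefSeq (GRCm38.p6) windows of 300 bases, running from 250 bases before the gene start to 50 bases from it on, were at hand for 30 of the 35 members (33 windows) and not for Cth, Slc1a5, Slc38a1, Slc7a3 and Slc7a5. The motif TGATGNAA was searched on both strands, so its reverse complement counts as well. It was found in windows of 8 of the 30 members (26.7%): Asns, Chac1, Got1, Nupr1, Pycr1, Slc1a4, Slc7a11 and Trib3. Over all 27025 genes with a window the share was 4.51%. The members were listed as genes of the ATF4 response, so setting these shares side by side is no independent test. Of the 19 members with a window that were called in untreated cells against lung, 6 hold the motif. The palindrome TGACGTCA, the full cyclic AMP response element, was in none of the members' windows, against 2.03% of all genes, and the palindrome CACGTG, an E-box that MYC can bind, was in windows of 3 members (Aldh18a1, Cbs and Nupr1; 10%), against 8.09% of all genes. In the Nupr1 window, which holds both TGATGNAA and CACGTG, the matches do not overlap. A match describes letters in a window and says nothing of binding in these samples.

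The 6 members that hold TGATGNAA and were expressed higher in the cells than in lung follow, ordered by the size of that change in untreated cells and written 5′ to 3′ on the gene's strand with the matches in capitals. The Trib3 window is chr2:152344011-152344310 on the reverse strand, Slc7a11 is chr3:50443564-50443863 on the reverse strand, Asns is chr6:7693160-7693459 on the reverse strand, Slc1a4 is chr11:20332664-20332963 on the reverse strand, Chac1 is chr2:119350992-119351291 on the forward strand and Got1 is chr19:43524556-43524855 on the reverse strand. Counted from the gene start, the match begins at 15 in Trib3, at -23 in Asns, at -4 in Slc1a4, at -193 in Chac1 and at -102 in Got1, while Slc7a11 holds a pair of matches at -66 and -47.
Trib3: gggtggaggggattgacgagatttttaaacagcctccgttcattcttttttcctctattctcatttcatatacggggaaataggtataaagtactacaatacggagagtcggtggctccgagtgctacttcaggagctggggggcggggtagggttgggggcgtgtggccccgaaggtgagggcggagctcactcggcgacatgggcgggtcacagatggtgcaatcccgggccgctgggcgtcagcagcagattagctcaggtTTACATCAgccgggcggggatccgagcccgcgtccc
Slc7a11: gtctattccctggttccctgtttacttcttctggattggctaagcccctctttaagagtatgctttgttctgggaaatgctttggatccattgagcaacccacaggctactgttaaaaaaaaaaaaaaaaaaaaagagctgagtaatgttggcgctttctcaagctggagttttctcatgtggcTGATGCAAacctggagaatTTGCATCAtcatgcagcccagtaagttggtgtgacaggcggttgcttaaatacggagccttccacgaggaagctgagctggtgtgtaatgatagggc
Asns: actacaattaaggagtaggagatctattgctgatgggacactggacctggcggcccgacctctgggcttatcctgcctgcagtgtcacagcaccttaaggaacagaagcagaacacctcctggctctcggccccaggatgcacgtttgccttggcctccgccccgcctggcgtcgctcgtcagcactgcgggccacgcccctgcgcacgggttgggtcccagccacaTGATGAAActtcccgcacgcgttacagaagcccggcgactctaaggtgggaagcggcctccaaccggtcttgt
Slc1a4: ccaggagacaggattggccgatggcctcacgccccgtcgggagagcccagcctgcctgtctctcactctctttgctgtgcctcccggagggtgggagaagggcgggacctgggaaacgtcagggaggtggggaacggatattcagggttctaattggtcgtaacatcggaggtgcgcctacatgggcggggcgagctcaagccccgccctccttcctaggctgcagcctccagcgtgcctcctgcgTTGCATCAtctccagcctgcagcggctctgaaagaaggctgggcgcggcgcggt
Chac1: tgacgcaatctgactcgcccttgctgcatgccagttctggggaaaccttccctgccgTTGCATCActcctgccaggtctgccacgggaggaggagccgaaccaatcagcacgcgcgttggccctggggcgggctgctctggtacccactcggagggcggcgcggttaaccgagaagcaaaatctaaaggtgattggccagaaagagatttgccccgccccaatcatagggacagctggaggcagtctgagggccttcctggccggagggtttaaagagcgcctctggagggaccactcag
Got1: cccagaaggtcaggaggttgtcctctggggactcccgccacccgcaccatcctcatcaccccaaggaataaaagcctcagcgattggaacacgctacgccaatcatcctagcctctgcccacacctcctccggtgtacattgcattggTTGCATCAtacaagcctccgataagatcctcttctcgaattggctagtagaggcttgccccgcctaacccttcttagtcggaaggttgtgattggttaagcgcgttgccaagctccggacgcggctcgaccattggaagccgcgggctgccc

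Set against lung, the cells were high for most of this programme. Of the 34 members, 22 were higher and 1 was lower in antibody-treated cells, and 21 were higher and 1 was lower in untreated cells, by an adjusted p under 0.05 and a change of at least 2-fold. Over all genes tested, 17.2% were higher and 23.9% lower in antibody-treated cells, and 17.8% were higher and 23.8% lower in untreated cells. The median change of the members was 1.70 in antibody-treated and 1.68 in untreated cells on the log2 scale, against -0.01 and 0.01 over the 15138 and 15197 genes tested. The same 21 members were called higher in both, Slc7a3 in antibody-treated cells alone, and Glul was the member called lower in both. Among the called members the largest adjusted p (limma) was that of Cth, 6.77e-06 in antibody-treated and 2.54e-05 in untreated cells. These are 2 readings against the same 16 lung arrays and are not independent of each other. The values below are deposited intensities, and changes are differences of log2(intensity + 16) after quantile normalization.

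Separation of the arrays gave a similar count. For 24 members all 3 antibody-treated arrays lay above all 16 lung arrays, against 24.9% of all genes, and for 4 (Mthfd1, Slc1a5, Cebpg and Glul) they lay below, against 36.9%. For the same number, 24 members, all 3 untreated arrays lay above the lung arrays, against 27.3% of all genes, and for 3 (Mthfd1, Cebpg and Glul) below, against 37.3%. These lists include Slc7a3, Slc38a2 and Got2, which separated from lung in both cell groups but reached less than 2-fold in at least 1 of them.

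**Figure D1:**
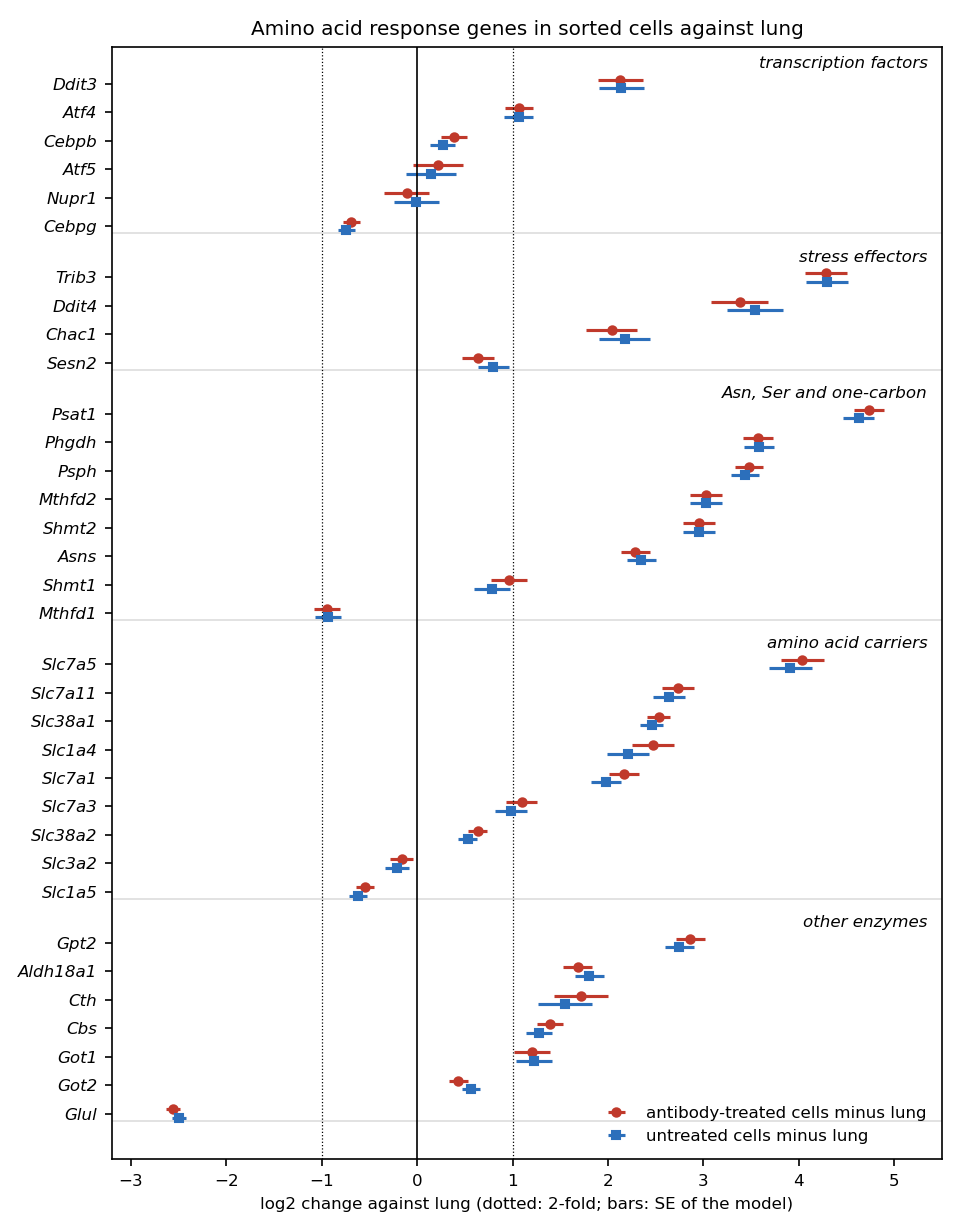
Log2 change of each of the 34 members against lung, in antibody-treated cells (red circles) and untreated cells (blue squares), grouped by role; bars are the SE of the model and dotted lines mark 2-fold. The changes run from Psat1 (4.73 and 4.63) to Glul (-2.56 and -2.50), and the 2 symbols of a gene lie close together.

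Among the 6 transcription factors, 2 rose and none fell in each cell group. Atf4 (gene ID 11911), the factor that drives the response, had intensities of 3919.8, 3284 and 4347 on the antibody-treated arrays, 4788, 3266 and 3496 on the untreated arrays and a lowest, median and highest value of 1181, 1903 and 2175 over the 16 lung arrays. All 6 cell arrays lay above every lung array. The change was 1.07 ± 0.15 in antibody-treated cells and 1.06 ± 0.15 in untreated cells (log2 change ± SE; limma, adjusted p = 5.64e-07 and 6.20e-07). It lies close to the 2-fold limit and fell under it in both comparisons when the lung arrays were those labelled female only (0.95 and 0.95), those numbered 5 to 8 only (0.88 and 0.87) or all but male 3 and male 4 (0.9998 and 0.99), and without antibody-treated array 3 (0.97) or without untreated array 1 (0.90). Other Atf4 probe sets gave larger changes in antibody-treated and untreated cells: 1.35 and 1.23 for a dim set, and 2.06 and 1.84 for a cross-hybridising set.

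Ddit3 (gene ID 13198), which encodes CHOP, a C/EBP family factor induced by ATF4, rose more. Its intensities were 1884, 2807 and 2655 on the antibody-treated arrays, 3399.7, 2097 and 2126 on the untreated arrays and a lowest, median and highest value of 275, 574 and 824 over the 16 lung arrays. The groups did not overlap, and the lowest cell array was above the highest lung array. The change was 2.13 ± 0.23 in antibody-treated cells and 2.14 ± 0.23 in untreated cells (log2 change ± SE; limma, adjusted p = 1.26e-08 and 1.15e-08). The 4 other factors were not called. Atf5, a relative of ATF4 under similar translational control, had a log2 change of 0.22 in antibody-treated and 0.15 in untreated cells, and Cebpb, a partner of ATF4, one of 0.39 in antibody-treated and 0.27 in untreated cells, with arrays that overlapped those of lung. Nupr1, a small stress-induced chromatin protein, had 2786 ± 249.7 in antibody-treated cells, 3124 ± 994 in untreated cells and 2964 ± 802 in lung (SD). Cebpg, the dimer partner of ATF4 on composite elements, was below every lung array in all 6 cell arrays, at 505, 725 and 513 on antibody-treated and 632, 508 and 535 on untreated arrays against 769 to 1109 in lung, but its change of -0.69 in antibody-treated and -0.74 in untreated cells was under 2-fold. A second Cebpg probe set pointed the other way, at 0.91 in untreated cells.

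Of the 4 stress effectors, 3 rose and none fell. Trib3 (gene ID 228775), a pseudokinase that binds ATF4 and CHOP and restrains them, had intensities of 913, 2222 and 835 on the antibody-treated arrays, 1948, 841 and 1128 on the untreated arrays and a lowest, median and highest value of 29.4, 48.6 and 83.2 over the 16 lung arrays. The cell arrays were all at least 835 and the lung arrays all at most 83.2. The difference was 4.28 ± 0.22 in antibody-treated cells and 4.29 ± 0.22 in untreated cells (log2 change ± SE; limma, adjusted p = 1.13e-14 and 1.06e-14), or 19.5-fold in antibody-treated and 19.6-fold in untreated cells. Within each cell group 1 array was far above the other 2: antibody-treated array 2 and untreated array 1. The log2 SD was 0.77 in antibody-treated cells, 0.53 in untreated cells and 0.26 in lung. The SE given rests on 1 spread shared by all groups, so it understates the spread of the cells for this gene.

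Ddit4 (gene ID 74747), which encodes the mTORC1 inhibitor REDD1, showed 4922, 3431 and 4662 on the antibody-treated arrays, 4661, 5333 and 4151 on the untreated arrays and a lowest, median and highest value of 172, 433 and 740.3 over the 16 lung arrays. The groups lay far apart, and neither array that was high for Trib3 was the highest for Ddit4. The change was 3.38 ± 0.29 in antibody-treated cells and 3.54 ± 0.29 in untreated cells (log2 change ± SE; limma, adjusted p = 1.98e-10 and 8.28e-11). Chac1 (gene ID 69065), an enzyme that breaks down glutathione, had 354, 469 and 296 on antibody-treated arrays and 870.3, 265 and 298 on untreated arrays, against 51.2 to 205 in lung. Untreated array 1 stood well above the other cell arrays. The change was 2.04 ± 0.27 in antibody-treated cells and 2.17 ± 0.27 in untreated cells (log2 change ± SE; limma, adjusted p = 2.13e-07 and 7.46e-08). Sesn2, a leucine sensor that restrains mTORC1, was at 198 ± 28.5 in antibody-treated cells, 224 ± 27.9 in untreated cells and 145 ± 24.8 in lung (SD), with overlapping arrays and changes of 0.64 in antibody-treated and 0.80 in untreated cells, which are under 2-fold.

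The enzymes for asparagine, serine and one-carbon units included Psat1, the member with the largest change. Of these 8 genes, 6 rose in both cell groups and none fell, with a median change of 2.99 in each. The 3 steps from glycolysis to serine all rose. Phgdh (gene ID 236539), which opens the serine branch, had intensities of 2417, 4024 and 2762 on the antibody-treated arrays, 3436, 2819 and 2892 on the untreated arrays and a lowest, median and highest value of 166, 247 and 326 over the 16 lung arrays. Every cell array was at 2417 or above and every lung array at 326 or below. All Phgdh probe sets on the array are of the type that may cross-hybridise, so its value may hold signal of related transcripts.

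Psat1 (gene ID 107272), the second enzyme of the serine branch, had 3266, 5087 and 2556 on the antibody-treated arrays, 3612, 2945 and 3086 on the untreated arrays and a lowest, median and highest value of 88.9, 113 and 184 over the 16 lung arrays. All cell arrays were far above all lung arrays, and the change was 4.73 ± 0.16 in antibody-treated cells and 4.63 ± 0.16 in untreated cells (log2 change ± SE; limma, adjusted p = 2.28e-18 and 3.45e-18). That corresponds to 26.6-fold in antibody-treated and 24.7-fold in untreated cells. Psph (gene ID 100678), the phosphatase that completes serine, was at 1166, 1687 and 1404 on antibody-treated and 1789, 1331 and 1129.6 on untreated arrays, against 72.3 to 159.6 in lung. For Phgdh the change was 3.57 in antibody-treated and 3.58 in untreated cells, and for Psph it was 3.47 in antibody-treated and 3.43 in untreated cells, with each adjusted p (limma) at most 4.16e-16.

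In one-carbon metabolism the mitochondrial pair of members rose, and the cytosolic pair, with changes in opposite directions, stayed under 2-fold. The mitochondrial enzymes Shmt2 (gene ID 108037), which splits serine into glycine and a one-carbon unit, and Mthfd2 (gene ID 17768), which oxidises that unit, both rose. Shmt2 had 599, 536 and 766 on the antibody-treated arrays, 748, 704 and 480.0 on the untreated arrays and a lowest, median and highest value of 35.04, 74.4 and 113 over the 16 lung arrays, and Mthfd2 had 612, 941 and 559.5 on antibody-treated and 757, 655 and 676 on untreated arrays against 46.1 to 106 in lung. The groups of both genes were separate. Their changes were 2.95 ± 0.17 in antibody-treated cells and 2.95 ± 0.17 in untreated cells (log2 change ± SE; limma, adjusted p = 5.21e-14 and 5.08e-14) for Shmt2 and 3.03 in antibody-treated and 3.03 in untreated cells for Mthfd2.

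Shmt1, the cytosolic serine hydroxymethyltransferase, had 254 ± 67.8 in antibody-treated cells, 215 ± 20.9 in untreated cells and 146 ± 43.6 in lung (SD). Its changes were 0.97 in antibody-treated and 0.78 in untreated cells (limma, adjusted p = 5.56e-05 and 0.000563). The arrays overlapped through lung male 3 and male 4, at 244 and 248. The next lung array, male 1, was at 171, and every cell array was at 177 or above. Without male 3 and male 4 the change in antibody-treated cells was 1.08 and was called. Mthfd1, the cytosolic trifunctional folate enzyme, was lower than every lung array in all 6 cell arrays. It was at 542, 616 and 625 on antibody-treated and 547, 574 and 691 on untreated arrays against 879 to 1627 in lung. Its change of -0.94 in antibody-treated and -0.93 in untreated cells was just under 2-fold. Another Mthfd1 probe set gave -1.24 in antibody-treated and -1.22 in untreated cells, while a cross-hybridising set gave 0.35 and 0.18. Whether the mitochondrial and cytosolic genes differed in their change was not tested.

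Asns (gene ID 27053), asparagine synthetase, is the classic target of the amino acid response. It had 1982, 3754 and 2367 on the antibody-treated arrays, 3509.7, 2656 and 2183 on the untreated arrays and a lowest, median and highest value of 373, 518 and 666 over the 16 lung arrays. Every cell array was at 1982 or above and every lung array at 666 or below. The change was 2.29 ± 0.15 in antibody-treated cells and 2.35 ± 0.15 in untreated cells (log2 change ± SE; limma, adjusted p = 9.51e-13 and 5.43e-13), or 4.88-fold in antibody-treated and 5.10-fold in untreated cells.

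**Figure D2:**
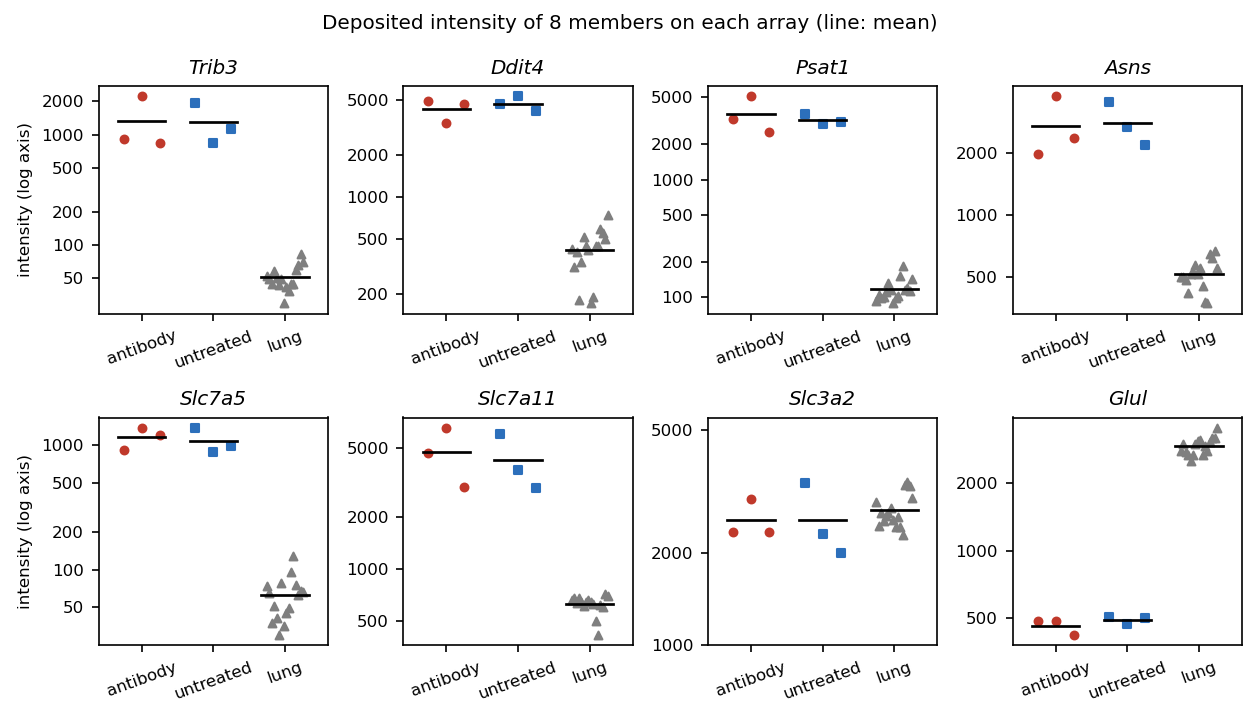
Deposited intensity (log axis, a different range in each panel) of 8 members on each of 3 antibody-treated, 3 untreated and 16 lung arrays; horizontal lines are group means. Trib3, Ddit4, Psat1, Asns, Slc7a5 and Slc7a11 lie above lung on all 6 cell arrays, Glul lies below (423 to 507 against 2486 to 3505), and Slc3a2 overlaps.

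Of the 9 amino acid carriers, 6 rose in antibody-treated and 5 in untreated cells, and none fell. Slc7a5 (gene ID 20539), the light chain of the LAT1 exchanger for large neutral amino acids, had 923, 1379 and 1216 on the antibody-treated arrays, 1384, 887 and 998 on the untreated arrays and a lowest, median and highest value of 29.998, 63.9 and 128 over the 16 lung arrays. The groups were far apart, and the change was 4.03 ± 0.23 in antibody-treated cells and 3.91 ± 0.23 in untreated cells (log2 change ± SE; limma, adjusted p = 4.37e-14 and 7.66e-14). Slc7a11 (gene ID 26570), the cystine and glutamate exchanger xCT, had 4691, 6581 and 2969 on the antibody-treated arrays, 6092, 3765 and 2957 on the untreated arrays and a lowest, median and highest value of 414, 642 and 713 over the 16 lung arrays. It also lay above lung on all cell arrays and changed by 2.73 in antibody-treated and 2.64 in untreated cells.

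Slc3a2, the heavy chain that carries both of these light chains to the cell surface, was not called. It had 2335, 2989 and 2331 on the antibody-treated arrays, 3358, 2292 and 1993 on the untreated arrays and a lowest, median and highest value of 2277, 2659.9 and 3384 over the 16 lung arrays. The groups overlapped, and the change was -0.16 ± 0.12 in antibody-treated cells and -0.21 ± 0.12 in untreated cells (log2 change ± SE; limma, adjusted p = 0.218 and 0.112). On antibody-treated array 2 and untreated array 1, Slc3a2 was again the highest of its group.

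Slc7a1 (gene ID 11987), a carrier of cationic amino acids, had 909, 1738 and 1032 on antibody-treated and 1573, 766 and 949 on untreated arrays, against 201 to 329 in lung, and changed by 2.17 in antibody-treated and 1.98 in untreated cells. Slc1a4 (gene ID 55963), a carrier of alanine, serine and cysteine, had 494, 831 and 287 on antibody-treated and 571, 305 and 382 on untreated arrays, against 55.5 to 146 in lung, and changed by 2.47 in antibody-treated and 2.21 in untreated cells. Slc38a1 (gene ID 105727), a sodium-coupled glutamine carrier, was even across the cells, with 1615, 1613 and 1565 on antibody-treated and 1783, 1361 and 1507 on untreated arrays and 180.0 to 325 in lung. Its change was 2.53 in antibody-treated and 2.46 in untreated cells. For each of these 3 genes the cell arrays lay above all lung arrays, with each adjusted p (limma) at most 2.16e-09.

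Slc7a3, a cationic carrier close to background, had 45.5, 68.4 and 53.5 on antibody-treated, 45.03, 54.6 and 50.7 on untreated and 7.01 to 36.9 on lung arrays. Its change of 1.09 in antibody-treated and 0.98 in untreated cells straddled 2-fold, so the gene counts as higher in one comparison and not in the other, and the direct difference between the cell groups was 0.11 (95% interval -0.25 to 0.48). Slc38a2, a glutamine carrier and known ATF4 target, was above lung on all cell arrays, at 3184, 3456 and 2409.6 on antibody-treated and 3367, 2436 and 2571 on untreated arrays against 1388 to 2036 in lung, with a log2 change of 0.63 in antibody-treated and 0.53 in untreated cells, under 2-fold. Another Slc38a2 probe set gave 2.51 in untreated cells. Slc1a5, the main glutamine carrier ASCT2, had 652 ± 20.7 in antibody-treated cells, 639 ± 185 in untreated cells and 993 ± 104 in lung (SD) and a log2 change of -0.55 in antibody-treated and -0.62 in untreated cells, under 2-fold.

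Of the 7 other enzymes, 5 rose and 1 fell in both cell groups. Gpt2 (gene ID 108682), the mitochondrial alanine aminotransferase, had 558, 1077 and 592 on the antibody-treated arrays, 768, 573 and 637 on the untreated arrays and a lowest, median and highest value of 61.5, 88.4 and 121 over the 16 lung arrays. The change was 2.86 ± 0.15 in antibody-treated cells and 2.75 ± 0.15 in untreated cells (log2 change ± SE; limma, adjusted p = 1.54e-14 and 3.25e-14). Aldh18a1 (gene ID 56454), which opens proline synthesis, had 247, 297 and 307 on antibody-treated and 409.7, 282 and 261 on untreated arrays, against 58.2 to 119.7 in lung, and changed by 1.68 in antibody-treated and 1.80 in untreated cells. Both genes lay above lung on all cell arrays. Got1 (gene ID 14718), the cytosolic aspartate aminotransferase, had 525, 806 and 599 on antibody-treated and 1025, 550.4 and 485 on untreated arrays against 184 to 416 in lung and changed by 1.20 in antibody-treated and 1.22 in untreated cells, and the untreated value was 0.94, under 2-fold, without untreated array 1. Got2, its mitochondrial counterpart, had 1892 ± 178 in antibody-treated cells, 2131 ± 188 in untreated cells and 1382 ± 138 in lung (SD), and its change of 0.43 in antibody-treated and 0.57 in untreated cells was under 2-fold.

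The pair of enzymes that turn homocysteine into cysteine both rose. Cth (gene ID 107869), which releases cysteine, had 337, 889 and 312 on the antibody-treated arrays, 709, 296 and 315 on the untreated arrays and a lowest, median and highest value of 86.9, 141 and 284 over the 16 lung arrays. Antibody-treated array 2 and untreated array 1 stood far above the other cell arrays, while the lowest cell array was just above the highest lung array. The change was 1.72 ± 0.28 in antibody-treated cells and 1.55 ± 0.28 in untreated cells (log2 change ± SE; limma, adjusted p = 6.77e-06 and 2.54e-05). Cbs (gene ID 12411), which forms cystathionine, had 157, 130.1 and 180.3 on antibody-treated and 162, 119.8 and 142 on untreated arrays, against 41.01 to 79.7 in lung, and changed by 1.39 in antibody-treated and 1.28 in untreated cells. A second, dimmer Cbs probe set pointed down in untreated cells (-0.73), and with the mean of its probe sets the Cbs change was 0.31 in antibody-treated and 0.28 in untreated cells, under 2-fold.

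Glul (gene ID 14645), glutamine synthetase, which makes glutamine from glutamate and ammonia, was the member that fell. It had 487, 485 and 423 on the antibody-treated arrays, 507, 470.3 and 501 on the untreated arrays and a lowest, median and highest value of 2486, 2939 and 3505 over the 16 lung arrays. The groups were separate and narrow. The change was -2.56 ± 0.07 in antibody-treated cells and -2.50 ± 0.07 in untreated cells (log2 change ± SE; limma, adjusted p = 9.90e-20 and 1.64e-19), so that lung exceeded the cells by 5.90-fold against antibody-treated and 5.64-fold against untreated cells.

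Most genes had further probe sets. The 34 members had 78 probe sets, 9 members had 1 and 25 had several. Of the 44 other sets, 39 pointed the same way as the one used, 5 the other way and 12 lay more than 1 log2 unit from it. The 5 opposite sets belonged to Mthfd1 (0.18 in untreated cells), Slc1a5 (0.21), Cebpg (0.91), Got2 (-0.33) and Cbs (-0.73), and of these members Cbs is the one called higher. For Slc7a1 other sets gave 3.00 and 0.49, for Slc38a1 another gave 1.08, for Gpt2 1.60 and for Slc1a4 0.99, while 3 cross-hybridising sets of Aldh18a1 gave 3.00 to 3.12. For these genes the size of the change differed between probe sets.

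No member differed detectably after the antibody. Of the 34 members 0 were called between antibody-treated and untreated cells (limma, adjusted p = 1 for each), against 0.0236% of 12711 genes tested, and the 3 arrays of the 2 groups overlapped for all 34, while 3.26% of all genes had separate groups. At an unadjusted p under 0.05 there were 0 members and 94 genes (0.74%). The largest difference was that of Slc1a4, 0.27 (95% interval -0.50 to 1.04), antibody-treated minus untreated. For 32 of the 34 members the 95% interval lay within 2-fold in both directions, as it did for 97.3% of all genes, and the intervals of Slc1a4 and of Cth, 0.17 (95% interval -0.76 to 1.09), reached past it. Changes smaller than these intervals were not detectable with 3 arrays a group.

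By role, the median difference between antibody-treated and untreated cells was 0.03 for the transcription factors, -0.15 for the effectors, -0.0003 for the asparagine, serine and one-carbon enzymes, 0.10 for the carriers and -0.02 for the other enzymes, against -0.02 over all genes. Atf4 itself differed by 0.01 (95% interval -0.36 to 0.38), Asns by -0.06 (95% interval -0.59 to 0.46) and Trib3 by -0.01 (95% interval -0.89 to 0.87). All 9 carriers were positive, from 0.05 to 0.27, while 43.6% of all genes were. However, 8 of the 9 changed sign under at least 1 of the other settings tried, and none was called.

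**Figure D3:**
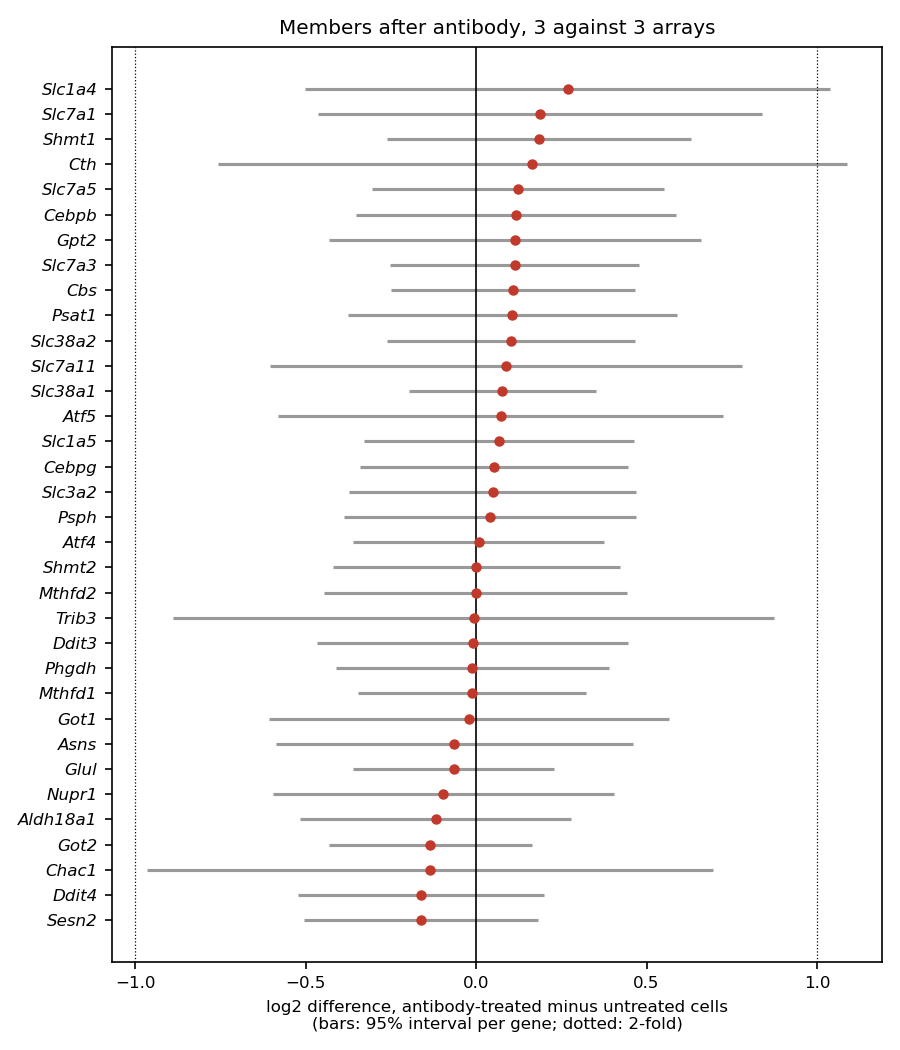
Log2 difference of each member between antibody-treated and untreated cells (points), with the 95% interval of the model for that gene (bars); dotted lines mark 2-fold. All intervals include 0, and the points lie between -0.16 (Sesn2) and 0.27 (Slc1a4).

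Within each cell group 1 array ran high for most members. After quantile normalization antibody-treated array 2 was the highest of its 3 arrays for 28 of the 34 members (82.4%), while it was the highest for 36.3% of all genes tested. By deposited intensity it was the highest for 22 members (64.7%), against 34.01% of all genes. Untreated array 1 was the highest of its group for 28 members (82.4%) after normalization, against 37.9% of all genes, and for 29 (85.3%) by intensity, against 40.9%. On the normalized log2 scale the median deviation of the members from their group mean was 0.26 and 0.29 on these 2 arrays, whereas it was 0.004 and 0.007 over all genes, and it lay between -0.14 and -0.09 on the other 4 cell arrays.

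The exceptions differed between the 2 arrays. On antibody-treated array 2 the members that were not highest after normalization were Atf4, Ddit4, Shmt2, Sesn2, Slc1a5 and Cbs, and by intensity also Mthfd1, Slc38a1, Nupr1, Aldh18a1, Got2 and Glul. Atf4 and Ddit4 were there at their lowest intensity of the group, 3284 and 3431. On untreated array 1 the members not highest were Ddit4, Mthfd1, Sesn2, Slc7a3 and Got2 on both scales and Glul after normalization alone, and Atf4 was at its highest, 4788. Cth reached 889 on antibody-treated array 2, against 337 and 312 on the others of its group, and 709 on untreated array 1, against 296 and 315.

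Other measures moved on these arrays too. On antibody-treated array 2 the median deviation of 9 proliferation genes was -0.50, that of 18 chaperone and sensor genes of the unfolded protein response was 0.19, and the log2 ratio of 3′ to 5′ signal was 0.40 for Gapdh and 1.21 for Actb, the highest of the 6 cell arrays. On untreated array 1 the values were -0.18 for proliferation, 0.15 for the unfolded protein response, -0.12 for Gapdh and 0.25 for Actb, the last 2 within the range of the other untreated and antibody-treated arrays. Their part in the members' deviation was not tested.

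**Figure D4:**
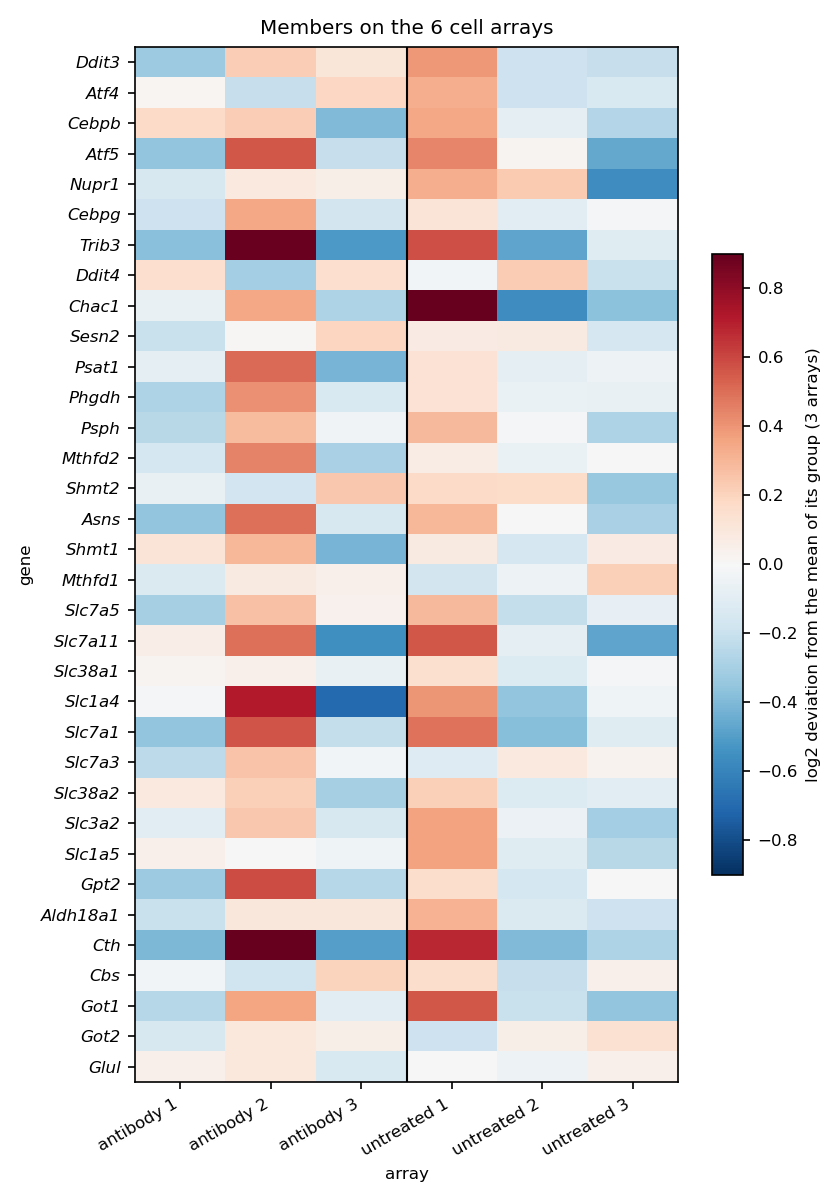
Deviation of each member's quantile-normalized log2 value (rows) from the mean of its own group on the 6 cell arrays (columns; 3 antibody-treated left, 3 untreated right); red is above and blue below the mean, and the colour scale ends at 0.9. Antibody-treated array 2 and untreated array 1 are red for most rows, each highest of its group for 28 of the 34 members after normalization (22 and 29 by deposited intensity).

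The members also varied among the lungs. The median SD of the log2 values over the 16 lung arrays was 0.26 for the members and 0.20 over all genes. Ddit4 was the most variable member, with an SD of 0.57, above 98.2% of genes tested, and Cebpg, Glul and Slc38a2 were among the least.

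Part of this spread ran with the replicate numbers. On the 8 lung arrays numbered 5 to 8, compared with the 8 numbered 1 to 4, the median difference of the 34 members was 0.12, against 0.02 over all genes. In 5 members the difference was over 0.4, a size that 3.67% of all genes reached: Nupr1 (0.69), Ddit3 (0.66), Ddit4 (0.62), Atf5 (0.51) and Chac1 (0.48). Nupr1 was the 1 member whose arrays 5 to 8 all lay above arrays 1 to 4, at 3223 to 4179 against 1648 to 2929. No member had them all below. Over all genes tested 2.98% had arrays 5 to 8 all above and 1.53% all below. Atf4 differed by 0.36.

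Among arrays labelled male Ddit3 was at 655 to 824 on arrays 5 to 8 and 275 to 411 on arrays 1 to 4, while on arrays labelled female it was at 551 to 743 and 456 to 598. Atf4 was at 1806 to 2175 and 1181 to 1475 on arrays labelled male, and at 1898 to 2065 and 1456 to 2019 on those labelled female. The lowest values are those of male 3 and male 4, whose Xist and Uty signals are as in arrays labelled female. Ddit3 was at 288 and 275 there and Atf4 at 1181 and 1224. On male 1 and male 2, Ddit3 was at 411 and 328 and Atf4 at 1475 and 1233. The numbers are replicate names in the labels, and no label says what they stand for. The signal of the 18S ribosomal RNA control also ran with the numbers on arrays labelled female and overlapped on those labelled male: it was 275 to 369 on arrays 5 to 8 and 39.7 to 78.2 on arrays 1 to 4 of those labelled female, and 140 to 347 on arrays 5 to 8 and 231 to 568 on arrays 1 to 4 of those labelled male. Its part in the members' differences was not tested. This split was seen in the data and was not tested, and the counts above changed little with it: against arrays 5 to 8 alone 21 members were higher in each cell group and 2 lower, and against arrays 1 to 4 alone 22 were higher and 1 lower in each.

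**Figure D5:**
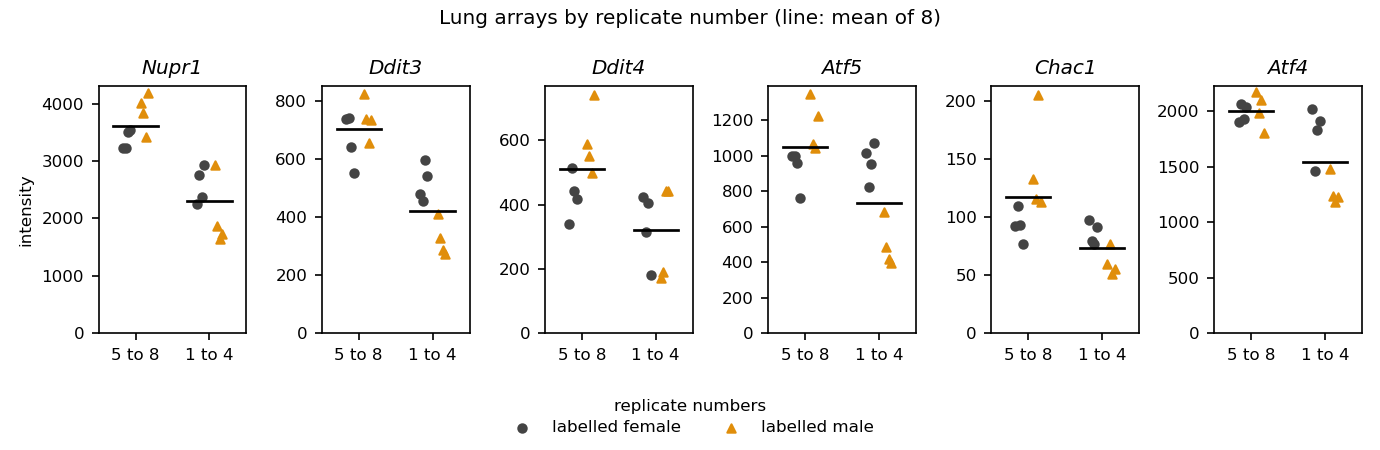
Deposited intensity of 6 members on the 16 lung arrays, split into replicate numbers 5 to 8 (left) and 1 to 4 (right); circles are arrays labelled female, triangles arrays labelled male, and lines are means of 8. Nupr1 does not overlap between the number ranges. The lowest value of each of Ddit3, Atf5, Chac1 and Atf4 is that of male 3 or male 4. The Xist and Uty signals of these arrays are as in arrays labelled female.

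The wider pathway was read from 8 further gene lists. Their counts stand beside the shares over all genes tested. These were 17.2% higher and 23.9% lower in antibody-treated cells, and 17.8% higher and 23.8% lower in untreated cells. The sensors upstream of ATF4 showed no call: of 9 genes for the eIF2α kinases, their regulators and the phosphatase subunits, 0 were higher or lower in either cell group, with median changes of 0.07 in antibody-treated and -0.04 in untreated cells. Ppp1r15b, a phosphatase subunit, had changes of 0.76 in antibody-treated and 0.67 in untreated cells. Eif2ak4, the GCN2 kinase that senses uncharged transfer RNA, had changes of 0.53 in antibody-treated and 0.50 in untreated cells, and Eif2ak3, the PERK kinase of the endoplasmic reticulum, changes of 0.03 and -0.07. Eif2ak1, another of the kinases, had the largest change of the list, -0.85 in antibody-treated and -0.92 in untreated cells, under 2-fold. All its cell arrays lay below all lung arrays. These kinases act through phosphorylation, which arrays do not measure.

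Of 13 further reported ATF4 targets, 4 rose (Atf3, Stc2, Eif4ebp1 and Avil) and 2 fell (Vegfa and Wars1) in both cell groups, with median changes of -0.14 in antibody-treated and -0.07 in untreated cells. Atf3, a stress-induced repressor, had mean intensities of 1229 ± 325, 1329 ± 502 and 239 ± 94.5 in antibody-treated cells, untreated cells and lung (SD), and Stc2, a secreted glycoprotein, 468 ± 58.7, 449.7 ± 167 and 75.7 ± 11.99. Vegfa, the endothelial growth factor, was lower in the cells, at 643 ± 44.8, 666 ± 277 and 1935 ± 247, as was Wars1, tryptophanyl transfer RNA synthetase, at 168 ± 47.2, 177 ± 37.04 and 537 ± 103.

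A list of 18 genes of the unfolded protein response was kept apart from the ATF4 targets, and whether they depend on ATF4 was not tested. Of these, 3 rose in antibody-treated cells (Sdf2l1, Pdia4 and Canx) and 2 in untreated cells (Sdf2l1 and Pdia4). None fell, and the medians were 0.53 and 0.46. Sdf2l1, a chaperone cofactor, was at 1349 ± 214, 1311 ± 248 and 219 ± 48.3 in antibody-treated cells, untreated cells and lung (SD).

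Most folate genes beyond the members rose. Of 12 tested, 8 rose and none fell in each cell group, with medians of 1.32 in antibody-treated and 1.37 in untreated cells. Aldh1l2 and Mthfd1l, both mitochondrial, had means of 1261 ± 337, 1285 ± 169.8 and 21.5 ± 8.93 and of 4208 ± 264, 4271 ± 603 and 226 ± 54.4 in antibody-treated cells, untreated cells and lung (SD). Gldc, of the glycine cleavage system, was at 79.9 ± 7.64, 100.2 ± 27.3 and 3.25 ± 3.73, and Slc25a32, the mitochondrial folate carrier, at 644 ± 74.2, 735 ± 82.7 and 121 ± 19.02. All 9 proliferation genes rose as well, with medians of 4.06 and 4.10, led in untreated cells by Birc5, Cdk1, Tk1 and Top2a, and the part of cell division in these changes was not tested.

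Among carriers outside the members more fell than rose. Of 22, 3 rose and 9 fell in antibody-treated cells, and 2 rose and 10 fell in untreated cells, with medians of -0.75 and -0.69. Slc38a5, a glutamine carrier, was at 0.96 ± 1.65, 1.79 ± 2.28 and 417 ± 92.6 in antibody-treated cells, untreated cells and lung (SD), and Slc6a14, a broad carrier of neutral and cationic amino acids, at 12.8 ± 8.91, 17.3 ± 5.30 and 620.4 ± 124. Slc1a1, a glutamate carrier, and Slc7a10, a carrier of small neutral amino acids, changed by -3.66 and -2.93 in antibody-treated and by -3.40 and -3.27 in untreated cells. Slc7a6, a light chain related to Slc7a5, rose, at 756 ± 124, 807 ± 46.4 and 117 ± 16.96.

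In the methionine, cysteine and glutathione list, 2 of 10 rose (Ahcy and Mtrr) and 3 fell (Cdo1, Ggt5 and Gclc) in each cell group. These counts are close to the shares of all genes called. Cdo1, which degrades cysteine, was at 37.3 ± 11.6, 31.5 ± 16.6 and 1453 ± 249.6 in antibody-treated cells, untreated cells and lung (SD). Ahcy, which clears S-adenosylhomocysteine, was at 1973 ± 281, 2161 ± 333 and 417 ± 58.2. Among 14 genes of amino acid breakdown and interconversion 3 rose and 3 fell in each cell group, again close to the shares of all genes. Of those that rose, Bcat1, the cytosolic branched-chain aminotransferase, was at 495 ± 187, 588 ± 64.1 and 1.10 ± 1.74, Pycr3, a proline-forming reductase, at 602 ± 137, 567 ± 54.5 and 101 ± 17.8, and Asrgl1, an asparaginase, at 291 ± 37.2, 326 ± 28.7 and 93.1 ± 24.05. Of those that fell, Arg2, the mitochondrial arginase, was at 13.6 ± 2.42, 11.5 ± 5.27 and 216 ± 147, and the others were Gpt, the cytosolic alanine aminotransferase (-1.59 and -1.41 on the log2 scale), and Prodh, proline dehydrogenase (-1.04 and -1.27). Of the genes through which mTORC1 senses amino acids, 18 in all, 2 rose and 2 fell in antibody-treated cells, and 2 rose and 1 fell in untreated cells. Sesn3, a relative of Sesn2, rose (1.45 and 1.64 on the log2 scale), as did Rraga (1.38 and 1.38), 1 of the Rag GTPases that bring mTORC1 to the lysosome. Rragd, another Rag GTPase, fell in both, at 47.9 ± 28.5, 30.9 ± 16.7 and 206 ± 50.7 in antibody-treated cells, untreated cells and lung (SD), and Sesn1 fell in antibody-treated cells (-1.03, against -0.98 in untreated cells, not called). Between antibody-treated and untreated cells 0 genes of any of these lists were called.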

How the data were processed

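The deposited values are probe set intensities on a linear scale, 1 per probe set and array, which the authors made with PLIER (per the submitters' processing notes). Its version, settings and any scaling are not given in the sources used here. The table holds 45101 probe sets on 22 arrays. The 64 control sets were left out, and of the other 45037 the platform annotation gave 34945 a single gene symbol, 932 several and 9160 none. Each of 18193 genes was represented by the probe set with the highest mean, avoiding cross-hybridising (_x_at) sets where another was present.

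Intensities were transformed as log2(intensity + 16) and quantile normalized over the 22 arrays, so changes of dim genes are understated. Genes that exceeded the 40th percentile of an array on 3 or more of the arrays compared were tested. The models were those of limma 3.58.1 (R 4.3.3), with an intensity trend, two-sided tests and Benjamini-Hochberg adjustment over all genes tested. The cell groups were set against lung, as the average of its male and female groups, in 1 fit of 4 groups, and genes were called at an adjusted p under 0.05 and a change of at least 2-fold. The cell groups were compared on their 6 arrays, called at an adjusted p under 0.05. The fits were tested on simulated data. SE are those of the model, and SD are over arrays. Against lung the model uses 1 spread per gene for all 4 groups, and most of those arrays are lung. For members that vary more among the cells, such as Trib3, these SE and adjusted p overstate the precision. For members that vary more in lung, such as Ddit4, it is the reverse. The median log2 SD of the members was 0.29 in antibody-treated cells, 0.28 in untreated cells and 0.26 in lung. Arrays have no read depth, and their number limits the precision. Array file dates were not given, so no scan batch could be set.

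The members, the further gene lists, the markers and the motifs were chosen with earlier results of these data known. All members are named, and of each further list up to 4 called genes with the largest change in untreated cells, with probe sets of a member that disagree with the one used. Marker lists are given as counts and sums. Eif2ak1, Eif2ak3, Eif2ak4, Ppp1r15b, Slc7a6, Avil, Wars1, Mtrr, Canx, Gpt, Prodh and Sesn1 were named outside that rule after their values were seen. The same holds for the other probe sets of Atf4 and for the other Mthfd1 set that was lower. Alternatives were offsets of 1 and 64, no normalization or median centring, a 60th percentile filter or none, other probe set rules, no trend, other arrays in the fit, the replicate number as a block, and leaving out each cell array. Splitting the lung arrays by replicate number was added after the data were seen.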

Additional observations from a re-analysis of the deposited data

Results flagged for a closer look

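Among 68 pairs of a member and a lung label (8 arrays each), 9 had 1 array that stood apart by Dixon's test, and chance gives about 1 in 20. The share over all genes is not given here, so the 9 cannot be read as particular to the members. The test was run on the quantile-normalized log2 values. The values given below are deposited intensities of the same arrays, not the values tested. Among arrays labelled female, the lowest Atf4 intensity was 1456 on array 2, against 1825 to 2065 on the others. Array 4 was lowest for Ddit4, at 183 against 315 to 514, and for Asns, at 420.1 against 484 to 574. Trib3 was lowest on array 8, at 29.4 against 43.6 to 58.2, and Shmt1 on array 3, at 81.5 against 119 to 141.

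Among arrays labelled male, array 4 was lowest for Shmt2, at 35.04 against 61.8 to 97.7, and for Slc7a3, at 7.01 against 22.01 to 31.9. Array 2 was highest for Mthfd1, at 1627 against 1103 to 1395, and lowest for Gpt2, at 61.5 against 89.7 to 121. The cell groups hold 3 arrays each and were not tested in this way.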

How the results depend on the processing

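No called change of a member turned direction under any of the settings tried. The count of members higher than lung was 20 to 23 in antibody-treated cells and 20 to 22 in untreated cells, and it was 21 to 22 and 20 to 21 when single cell arrays were left out. The count of members lower, 1 in each, became 2 in antibody-treated cells against the arrays labelled male only and against arrays 5 to 8 only, and in untreated cells against arrays 5 to 8 only. It was 1 to 2 in untreated cells when single arrays were left out; Mthfd1 was the gene that joined Glul each time. Slc7a3 could not be given under the 60th percentile filter.

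Between antibody-treated and untreated cells no member was called under any setting, while the count over all genes was 3 at first, 1 with an offset of 1, and 0 to 3 with single arrays left out: 1 without untreated array 1 and 0 without untreated array 3. With the replicate number as a block 2 genes and 0 members were called. The labels do not say whether the numbers pair the samples. The correlations of same-numbered arrays were 0.066, -0.26 and 0.068, and with 3 arrays a group they cannot settle it. The block changed no other call. The cause of these differences was not tested. Calls that depended on a setting were those of Atf4, Cbs, Got1, Slc7a3, Slc38a2, Shmt1, Mthfd1 and Sesn2, most of which lie near 2-fold. With an offset of 64, Cbs was at 0.98 and 0.90. Slc38a2 reached 1.31 and 1.37 with the mean of its probe sets, and Shmt1 reached 1.10 in antibody-treated cells against arrays 5 to 8.

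Without normalization the median of all genes moved to -0.18 in antibody-treated and -0.15 in untreated cells, and with median centring to 0.09 and 0.12. The number of arrays and the brightness over background limit what can be seen, as for Slc7a3.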
